A study of Mus musculus with 257 samples.

Results

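The genes described here are Ptar1, Dgki, Kalrn, Atm, Kmt2c, Zfp369, Kcnq1ot1, Nkain3 and Ccdc15, 9 of the 32075 genes in the deposited count table of mouse cerebellum and medulloblastoma. They were chosen by their values at E16.5 (an embryonic age in days) in the normal background, where all 3 groups with floxed Ddx3x stood higher than the WT embryos, the heterozygous group included. That comparison is therefore given as a description, and tests of the 9 genes are given only in comparisons of other libraries. The question was whether the low WT embryos or the floxed allele go with the pattern when all groups of the study are read.

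The study sequenced RNA of 227 cerebella and 30 tumours (257 libraries in 53 groups), to ask how loss of Ddx3x, an X-linked gene for an RNA helicase, bears on hindbrain lineages and on medulloblastoma. The B of the group names is Blbp-Cre, a recombinase driven by the promoter of Fabp7 in radial glia and hindbrain progenitors, so cells outside that lineage keep the floxed allele intact. The WT labels name no Cre. D marks floxed Ddx3x: FLY embryos are males whose X chromosome carries it, FL-FL (also written FLFL) embryos are females with both copies floxed, and FLPlus embryos are females with an intact copy as well. The normal background holds WT (no floxed allele), BD-FLY, BD-FL-FL and BD-FLPlus. All groups of the Wnt background carry Blbp-Cre with the Ctnnb1 and Pik3ca alleles of the Wnt medulloblastoma model: BCP, the control without floxed Ddx3x, and BDCP-FLY, BDCP-FLFL and BDCP-FLPlus. All groups of the Shh background carry Blbp-Cre with a Ptch1 allele: BPtch, the control without floxed Ddx3x, and BPtchD-FLY, BPtchD-FLFL and BPtchD-FLPlus. Cerebella were taken at E16.5, at postnatal days 5 and 13 (P5, P13) and from day 30 on (P30+). The titles of BPtch P13 replicates 3 and 4 read P14, while their age label is P13, and they are counted as P13 here. The labels give no sex for the controls. They number the embryos of E16.5 by a dam or litter and a pup, read here as litters.

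The 9 genes do unlike work. Ptar1 is the alpha subunit of a protein prenyltransferase, Dgki a kinase that turns the second messenger diacylglycerol into phosphatidic acid, and Kalrn a guanine nucleotide exchange factor that activates Rac and shapes dendritic spines. Atm is the kinase that signals DNA double-strand breaks, Kmt2c a histone methyltransferase that acts at enhancers, Zfp369 a zinc finger protein related to the neurotrophin receptor partner Zfp110, and Kcnq1ot1 a long noncoding RNA that is transcribed from the paternal allele and silences its imprinted domain. Nkain3 encodes a membrane protein that interacts with the sodium pump, and Ccdc15 a coiled-coil protein of the centriole.

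Most of the 9 are long genes. On GRCm38 (GENCODE M21), Ptar1 lies on the plus strand of chr19:23687429-23731668, Dgki on the minus strand of chr6:36846022-37300184, Kalrn on the minus strand of chr16:33969073-34573532, Atm on the minus strand of chr9:53439149-53536740, and Kmt2c on the minus strand of chr5:25271798-25498783. Zfp369 lies on the plus strand of chr13:65278814-65304221, Nkain3 on the minus strand of chr4:20118874-20778866, Ccdc15 on the minus strand of chr9:37275835-37348432, and Kcnq1ot1 on the minus strand of chr7:143203458-143296549, inside and antisense to Kcnq1. The longest annotated transcripts measure 14.97 kb for Kmt2c, 12.57 kb for Ptar1, 10.44 kb for Kalrn and 9.82 kb for Atm. Those of the other coding members measure 4.60 kb for Dgki, 4.57 kb for Nkain3, 3.52 kb for Ccdc15 and 2.91 kb for Zfp369, and the unspliced Kcnq1ot1 measures 93.09 kb. The median of 14865 tested coding genes was 3.44 kb, and 8 of the 9 members lay above it. The GC content of the longest transcript was below the median of those genes (49.9%) in 8 of 9 members, from 39.5% in Ptar1 to 47.6% in Kmt2c, with Dgki at 51.7%. All 9 genes span more than the median gene (25.1 kb). The members share no chromosomal neighbourhood: only Atm and Ccdc15 are on the same chromosome.

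To show how unlike the starts of genes with a like pattern are, the 250 bases upstream of the annotated start are printed for 3 members whose window lies outside their own annotated gene or overlaps it by only 2 bases. They are RefSeq promoter sequences on GRCm38.p6, 5′ to 3′, of Ptar1 (chr19:23687150-23687399, plus strand), Kcnq1ot1 (chr7:143296548-143296797, minus strand) and Kmt2c (chr5:25498784-25499033, minus strand). Capitals mark CCAAT or GGGCGG on either strand, with overlapping matches counted.
Ptar1: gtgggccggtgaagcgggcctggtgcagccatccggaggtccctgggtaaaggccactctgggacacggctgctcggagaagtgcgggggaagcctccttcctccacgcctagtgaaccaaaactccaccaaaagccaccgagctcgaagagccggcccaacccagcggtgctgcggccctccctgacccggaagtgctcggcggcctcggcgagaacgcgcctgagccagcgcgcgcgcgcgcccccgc
Kcnq1ot1: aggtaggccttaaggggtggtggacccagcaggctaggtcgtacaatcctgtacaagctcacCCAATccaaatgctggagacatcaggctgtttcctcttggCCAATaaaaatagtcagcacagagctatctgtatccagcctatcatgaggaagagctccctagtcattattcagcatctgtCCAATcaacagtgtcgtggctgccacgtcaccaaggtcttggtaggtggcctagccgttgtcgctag
Kmt2c: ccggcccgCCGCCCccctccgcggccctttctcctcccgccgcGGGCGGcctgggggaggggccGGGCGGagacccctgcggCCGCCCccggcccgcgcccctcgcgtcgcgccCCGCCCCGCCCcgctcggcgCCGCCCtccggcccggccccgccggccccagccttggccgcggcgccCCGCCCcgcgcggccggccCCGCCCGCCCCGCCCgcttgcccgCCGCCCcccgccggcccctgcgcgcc
The Kmt2c window held 12 matches to GGGCGG and 48 CpG, the Kcnq1ot1 window 3 matches to CCAAT and 5 CpG, and the Ptar1 window neither motif and 26 CpG. RefSeq windows were matched for 7 of the 9 members, the unmatched being Nkain3 and Zfp369. Of those 7, CCAAT was found in 3 (Dgki, Atm and Kcnq1ot1), GGGCGG in 2 (Kmt2c and Atm) and TATAAA in 0. Among 32851 promoters of the same length 33.8% held CCAAT, 32.7% GGGCGG and 12.4% TATAAA, and the median promoter held 6 CpG. No motif of the 3 was shared by all 7.

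Library totals ranged from 614465 to 92341867 counts over all libraries and from 8119895 to 37090068 over the 54 of E16.5. P-values measure only the spread between these libraries, since no label states how they were batched. BPtchD-FLY P5 replicate 2 went against its label by its sex-linked genes, BPtchD-FLY P30+ replicate 1 held the fewest counts, and 3 of 5 BPtch P30+ libraries had Mki67 levels of tumour range. So had BPtchD-FLPlus P30+ replicates 1, 3, 4 and 5 and BPtchD-FLY P30+ replicates 2 and 3, but no BPtchD-FLFL library. The labels give those BPtch P30+ libraries animal numbers that BPtch tumour libraries also carry. The level of Ddx3x itself at E16.5 was 404.4 ± 53.1 (SD, n = 5) CPM (counts per 1000000 counts of the library) in WT, 345 in BD-FLY, 424 in BD-FL-FL and 408 in BD-FLPlus. The fitted log2 fold change, floxed minus WT, was -0.03 ± 0.09 (standard error, as for all log2 fold changes below; adjusted p = 0.97 by edgeR). Read by genotype, BD-FLY libraries ran from 318.6 to 378.6 CPM, overlapping WT at 324.0 to 465.7 CPM, and BD-FL-FL libraries from 379.4 to 446.8 CPM. BPtchD-FLY libraries, at 372.5 to 401.0 CPM, were below BPtch, at 436.4 to 478.4 CPM. Ddx3x is X-linked and the sex of the controls is not labelled, and the parts of sex and of the floxed allele in these levels were not separated. In bulk tissue fewer cells of a type and less RNA per cell cannot be told apart.

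In the normal background at E16.5 each of the 9 genes had its lowest libraries among the WT embryos, and the difference was largest for Ptar1 and Nkain3. The log2 fold changes of the 3 floxed groups together against WT were 2.13 ± 0.40 for Ptar1, 1.75 ± 0.36 for Nkain3, 1.26 ± 0.23 for Dgki, 1.10 ± 0.18 for Ccdc15, 0.88 ± 0.16 for Kalrn, 0.86 ± 0.16 for Zfp369, 0.81 ± 0.13 for Atm, 0.74 ± 0.14 for Kcnq1ot1 and 0.58 ± 0.12 for Kmt2c. The median of the 9 was 0.86 in BD-FLY, 1.05 in BD-FL-FL and 0.84 in BD-FLPlus, so the heterozygous group stood as high as the males. Over all genes 22 of 18552 (0.119%) were called, which means an adjusted p under 0.05 by edgeR's quasi-likelihood test with Benjamini-Hochberg adjustment. Libraries of floxed and WT embryos did not overlap for 3 of the 9 (Ptar1, Atm and Ccdc15), against 0.0809% of all genes tested. Nothing is read from these counts, because this contrast selected the members.

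**Figure D1:**
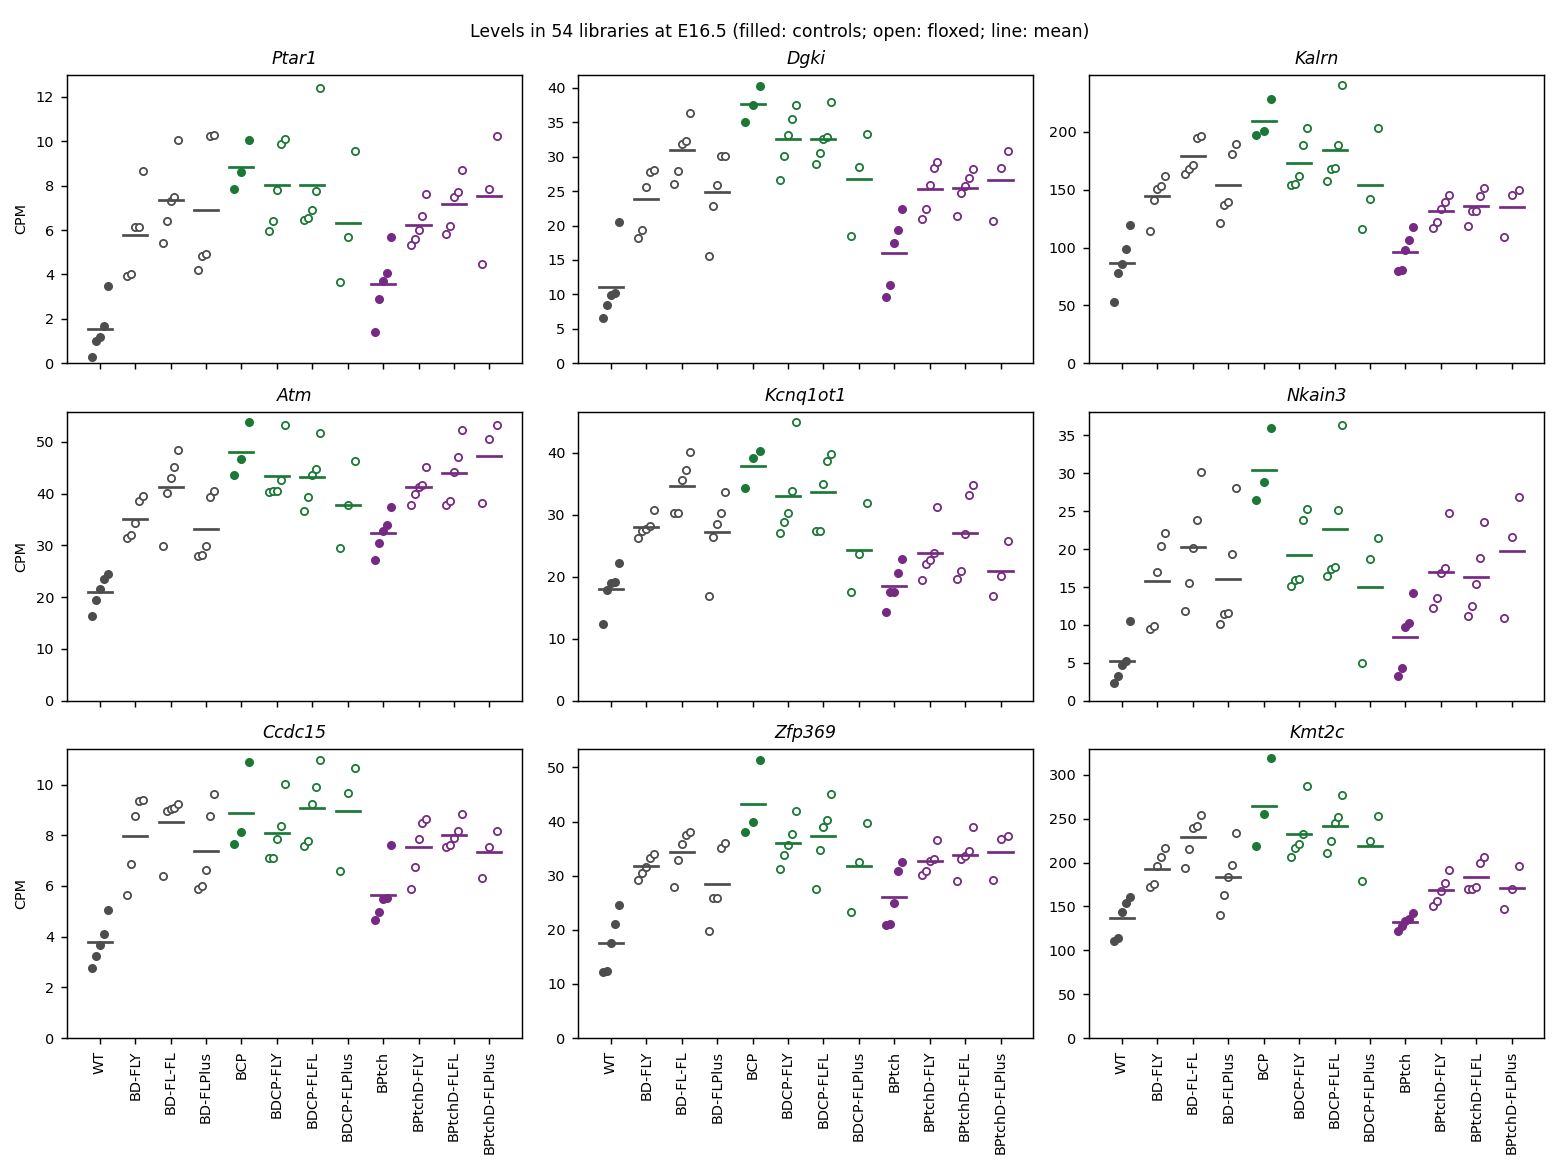
CPM of each of the 9 genes (linear axis, 1 panel a gene) in the 54 libraries of E16.5, by the 12 groups, with controls as filled points, floxed groups as open points and the group mean as a line. WT libraries lie at the bottom of most panels, BCP libraries at the top and BPtch libraries low, although BCP and BPtch both lack floxed Ddx3x.

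Litters gave a comparison within the same pregnancy. In all, 4 litters held a WT embryo and floxed littermates, with 1 WT and 3 floxed, 1 WT and 4, 1 WT and 5, and 2 WT and 4. In every one of the 4 litters the WT libraries were below each floxed littermate for 9 of 9 members, which holds in all 4 litters for 1.23% of the genes tested. Nothing is read from this count, because 3 of the litters consist of libraries that selected the members. The 5 floxed littermates in one of these litters were of the Wnt background, so they were not part of the comparison that selected the members, although their WT littermate was. There Ptar1 stood at 3.50 CPM in the WT embryo and at a mean of 9.58 CPM in the littermates, Dgki at 20.6 and 35.3 CPM, and Atm at 24.4 and 46.3 CPM. Those littermates carry Cre and the Ctnnb1 and Pik3ca alleles as well, so these and floxed Ddx3x cannot be told apart there. The WT embryo of that litter was WT replicate 1, which was the highest of the 5 WT libraries for Ptar1, Dgki, Kalrn, Atm, Nkain3, Ccdc15 and Zfp369.

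Ptar1 was the least abundant member in WT embryos per exon length, at 0.119 CPM per kb of exon, and Kmt2c the most abundant at 6.73. The WT libraries, replicates 1 to 5, held Ptar1 at 3.50, 1.17, 0.985, 1.68 and 0.298 CPM, which rest on 67, 14, 23, 29 and 7 counts. The floxed normal libraries (n = 15) ran from 3.94 over a median of 6.15 to 10.3 CPM. All of them were above every WT library, but the low WT counts make the fold imprecise. In the Wnt background the 3 BCP libraries held 10.0, 8.61 and 7.85 CPM, and the 13 floxed libraries ran from 3.68 over 6.89 to 12.4. Here the control without floxed Ddx3x lay in the upper part of the floxed range. The 5 BPtch libraries of the Shh background held 4.08, 5.68, 2.89, 3.73 and 1.39 CPM, and the 13 floxed libraries ran from 4.48 over 6.63 to 10.2. BPtch was thus low again, overlapping the floxed range only by its highest library.

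Dgki showed the same order. It stood at 20.6, 9.89, 8.43, 10.2 and 6.60 CPM in WT and between 15.6 and 36.4 CPM (median 27.8) in the floxed normal libraries. BCP libraries held 40.2, 35.0 and 37.6 CPM, 2 of them above every library of the normal background. The floxed Wnt libraries ran from 18.5 over 32.5 to 37.9 CPM, with 10 of 13 below the lowest BCP library. BPtch held 19.3, 22.3, 11.3, 17.4 and 9.68 CPM against 20.7 to 30.8 (median 25.9) in the floxed Shh libraries.

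Kalrn, the exchange factor, was at 119, 99.0, 77.8, 86.0 and 53.2 CPM in WT and at 114 to 197 (median 162) in the floxed normal libraries. BCP held 228, 198 and 201 CPM and its floxed groups 116 to 240.0 (median 168). In BPtch the values were 107, 118, 80.6, 97.6 and 79.4 CPM, against 109 to 151 (median 133) with floxed Ddx3x. Only the highest WT and BPtch libraries reached the lowest floxed libraries.

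Among the nuclear members, Atm was at 24.4, 21.6, 19.4, 23.5 and 16.3 CPM in WT and at 28.0 to 48.5 (median 38.6) in the floxed normal libraries. BCP libraries held 53.9, 43.6 and 46.8 CPM, and the floxed Wnt libraries 29.5 to 53.2 (median 40.5). BPtch libraries held 32.8, 37.4, 30.5, 33.96 and 27.3 CPM, and the floxed Shh libraries 37.9 to 53.2 (median 41.7). For Atm 5 of 5 BPtch libraries were above every WT library, and both controls were below the floxed libraries of their own background.

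Unlike Atm, Kmt2c had WT and BPtch at like levels, as did Kcnq1ot1 (means of 18.1 and 18.6 CPM). WT libraries held 144, 153, 115, 160.3 and 111 CPM, and BPtch libraries 128, 142, 122, 134 and 136. The floxed normal libraries ran from 139.9 over 197 to 254 CPM and the floxed Shh libraries from 148 over 170.4 to 207 CPM. BCP held 319, 219 and 256 CPM and its floxed groups 179 to 287 (median 224), so the whole Wnt background lay above both other controls.

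Zfp369 was at 24.6, 17.6, 12.3, 20.98 and 12.3 CPM in WT, 51.4, 38.1 and 40.0 CPM in BCP and 32.6, 30.9, 20.9, 24.95 and 21.04 CPM in BPtch. Its floxed libraries ran from 19.8 to 38.1 CPM (median 32.9) in the normal, 23.4 to 45.1 (median 35.7) in the Wnt and 29.1 to 39.0 (median 33.0) in the Shh background. The 3 floxed medians lay within 3 CPM of each other, while the 3 controls were spread around them. Zfp110, a related gene whose reads could be confused with those of Zfp369, had log2 fold changes of -0.21 ± 0.09 (adjusted p = 0.54) in the Wnt and -0.09 ± 0.07 (adjusted p = 0.62) in the Shh background, floxed minus control, by edgeR.

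Kcnq1ot1 counts cannot be told apart from reads of Kcnq1 precursor RNA, because the strand setting of the counting is not given. WT libraries held 19.0, 19.1, 12.3, 22.2 and 17.9 CPM, BCP libraries 40.2, 39.2 and 34.4 CPM, and BPtch libraries 17.6, 17.6, 20.6, 22.9 and 14.3 CPM. The floxed libraries ran from 17.0 to 40.1 (median 30.3) in the normal, 17.5 to 45.0 (median 30.2) in the Wnt and 16.9 to 34.8 CPM (median 22.6) in the Shh background. Ranges of floxed and control libraries overlapped in all 3 backgrounds.

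Nkain3 varied within groups as well as between them. It stood at 10.5, 5.20, 2.40, 4.75 and 3.28 CPM in WT, 36.0, 26.5 and 28.9 CPM in BCP and 9.66, 14.2, 3.27, 10.3 and 4.36 CPM in BPtch. Floxed libraries ran from 9.41 to 30.2 (median 17.0) in the normal, 5.00 to 36.4 (median 17.7) in the Wnt and 10.9 to 26.9 CPM (median 16.9) in the Shh background. Of the 13 floxed Wnt libraries 12 were below the lowest BCP library.

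Ccdc15, the centriole protein, stood at 5.07, 4.11, 3.68, 3.25 and 2.77 CPM in WT, 10.9, 7.64 and 8.14 CPM in BCP, and 5.48, 7.62, 4.66, 5.53 and 4.97 CPM in BPtch. Floxed libraries held 5.63 to 9.64 (median 8.76) in the normal, 6.61 to 10.98 (median 8.36) in the Wnt and 5.87 to 8.83 CPM (median 7.86) in the Shh background. This was the member for which BCP and its floxed groups differed least.

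Ordered by group mean, WT was the lowest of the 12 groups of E16.5 for 8 of the 9 members, a place that the choice of the members largely set. BCP was the highest for 8 of 9, against 10.2% of 18552 genes, the exception being Ccdc15 with BDCP-FLFL highest at 9.09 CPM. BPtch was the lowest or the second lowest for 9 of 9, against 12.3% of genes. Kmt2c was lowest in BPtch, at 132.3 ± 7.76 CPM (SD, n = 5) against 136.6 ± 22.6 in WT, a difference within the spread of the libraries. Over the 48 cerebellar groups of all ages WT at E16.5 was the lowest for Ptar1, Dgki, Atm and Zfp369 and the second lowest for Kcnq1ot1 and Kmt2c, but rank 12 from the lowest for Ccdc15, 15 for Nkain3 and 28 for Kalrn.

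The Wnt background tested the floxed allele against a control that carries Cre. All 9 members had a negative log2 fold change, floxed minus BCP, with a median of -0.34, from -0.75 ± 0.30 in Nkain3 to -0.08 ± 0.17 in Ccdc15. None of the 9 was called (edgeR), against 0.0315% of all genes (6 called, 1665 at an unadjusted p under 0.05), and DESeq2 called 0 members and 52 genes. The median by genotype was -0.26 in BDCP-FLY, -0.22 in BDCP-FLFL and -0.48 in BDCP-FLPlus. Libraries without overlap were found for 0 of 9 members and for 0.651% of genes. One litter held BCP and floxed embryos, BCP replicates 1 and 2 and BDCP-FLPlus replicate 1. There the floxed embryo was below both BCP littermates for 6 of 9 members, against 28.7% of genes, and between them for Kalrn, Ccdc15 and Kmt2c. Ptar1 stood at 5.68 CPM in it and at 8.61 and 10.03 CPM in the BCP littermates, and Kcnq1ot1 at 17.47 against 39.21 and 40.23 CPM. With 1 floxed embryo this has no replicate check. Choroid plexus markers had higher values in the same comparison of all libraries: their 7 genes summed to 48.0 to 649 CPM in BCP and 80.2 to 3153 CPM in the floxed libraries, with a median log2 fold change of 2.36, 7 of 7 positive, 0 called and none of them at 0 in either group. Their part in the member values was not tested.

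In the Shh background the sign was the opposite. All 9 members had a positive log2 fold change, floxed minus BPtch, with a median of 0.46, and 3 of 9 rose by edgeR, against 0.393% of all genes: Kmt2c by 0.41 ± 0.07 (adjusted p = 0.026), Atm by 0.46 ± 0.09 (adjusted p = 0.045) and Kalrn by 0.48 ± 0.10 (adjusted p = 0.045). The largest values were not called: Nkain3 at 1.08 ± 0.30 (adjusted p = 0.12), Ptar1 at 0.98 ± 0.24 (adjusted p = 0.075) and Dgki at 0.70 ± 0.16 (adjusted p = 0.067). All 13 floxed libraries were above all 5 BPtch libraries for 2 of 9 members, Atm and Kmt2c, against 0.297% of genes. All 5 BPtch embryos came from 1 litter that held no floxed library, so litter and genotype cannot be told apart there. The calls rested on single libraries: leaving out each library in turn gave 0 to 6 calls, and the libraries are named with the processing alternatives. DESeq2 called 8 of 9.

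Markers of neighbouring tissue differed in the Shh comparison too. The 11 Hox genes of the medulla summed to 3.57 to 123 CPM in BPtch and 34.6 to 471 CPM in the floxed libraries, with a median log2 fold change of 1.86, 11 of 11 positive and 1 called (Hoxd4, 3.46 ± 0.67, adjusted p = 0.040 by edgeR). The cerebellar and midbrain factors En1 and En2 fell, by 1.26 ± 0.22 (adjusted p = 0.026) and 1.07 ± 0.21 (adjusted p = 0.040). As a list, the 9 cerebellar identity genes overlapped, summing to 488 to 772 CPM in BPtch and 520 to 855 CPM in the floxed libraries. The 8 midbrain genes summed to 176 to 293 CPM in BPtch and 142 to 203 CPM in the floxed libraries. Choroid plexus markers summed to 726 to 5167 CPM in BPtch and 52.0 to 3212 CPM in the floxed libraries (0 of 7 positive, 0 called). No gene of these lists was at 0 in a whole group. The part of dissection or tissue makeup in the member values was not tested.

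The difference of the floxed effect between the Shh and the Wnt background was tested as an interaction, chosen after the values were seen. It was positive for all 9 members with a median of 0.79, and 4 of 9 were called by edgeR against 0.327% of genes: Dgki at 1.07 ± 0.23 (adjusted p = 0.038), Kalrn at 0.85 ± 0.19 (adjusted p = 0.043), Atm at 0.75 ± 0.16 (adjusted p = 0.036) and Kmt2c at 0.68 ± 0.14 (adjusted p = 0.036). Nkain3 had the largest value, 1.85 ± 0.45 (adjusted p = 0.059), and Ccdc15 the smallest, 0.54 ± 0.21 (adjusted p = 0.21). No member was called without the low-count filter, and leaving out each library in turn gave 0 to 7.

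**Figure D2:**
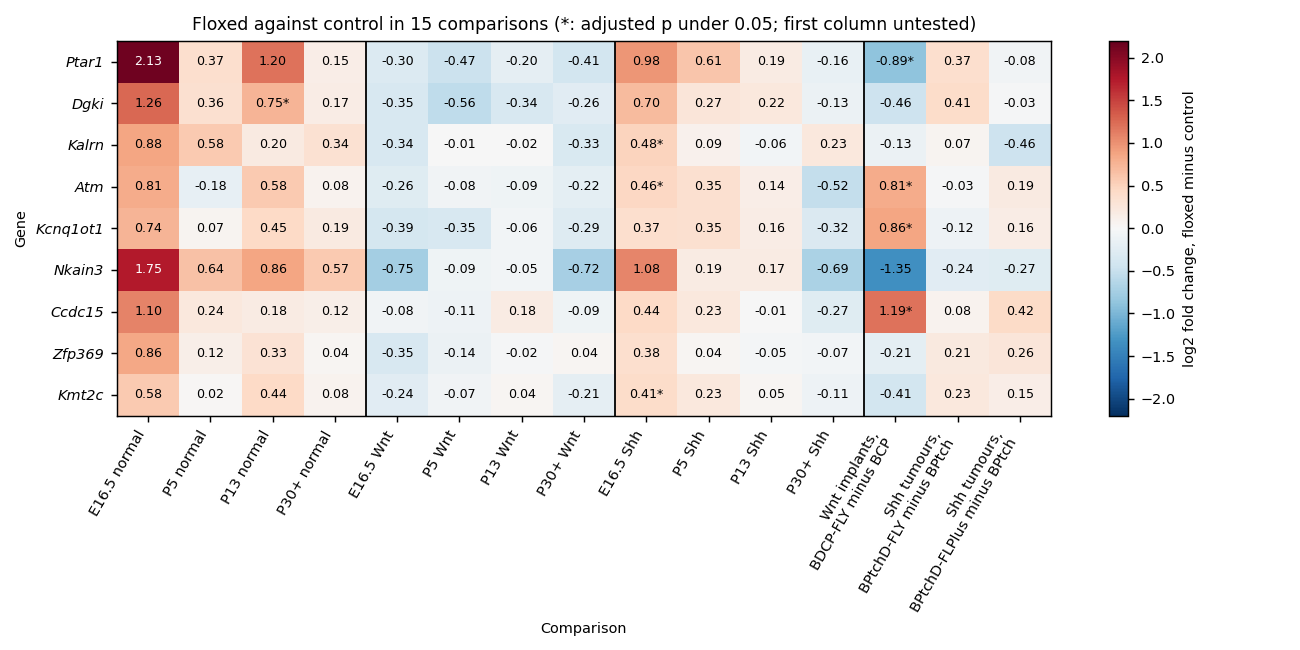
Log2 fold changes of the 9 genes (rows) in 15 comparisons (columns), floxed minus control by background and age, then in Wnt implants and Shh tumours. Colour gives the sign and size and a star an adjusted p under 0.05 by edgeR, except in the first column, which chose the genes and was not tested. At E16.5 the normal and Shh columns are positive and the Wnt column negative for all 9 genes.

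Later ages of the normal background had the same controls' genotype but other animals. At P13 all 9 members had a positive log2 fold change, floxed minus WT, with a median of 0.45, and 1 of 9, Dgki, rose by 0.75 ± 0.15 (adjusted p = 0.048 by edgeR), against 0.225% of genes. WT P13 libraries, replicates 1 to 5, held Dgki at 13.6, 20.3, 11.8, 20.4 and 23.1 CPM, and the 14 floxed libraries at 20.4 to 39.2 CPM. Ptar1 was at 5.93, 6.14, 1.75, 8.27 and 6.38 CPM in WT and at 6.26 to 18.2 CPM in the floxed libraries, with a log2 fold change of 1.20 ± 0.29 (adjusted p = 0.097). WT replicate 3 was the lowest WT library of P13 for all members except Kalrn. The Dgki call of the 3 groups together was lost in 13 of 19 omissions of a library, as listed with the alternatives, and without the low-count filter. By genotype, edgeR called 2 members in BD-FL-FL (64 genes higher and 22 lower of 18679). It called 0 members in BD-FLY (13 and 2 genes) and BD-FLPlus (7 and 8 genes). Kalrn ran from 88.0 to 127.3 CPM in BD-FL-FL, 60.6 to 80.5 in BD-FLY, 58.1 to 70.3 in BD-FLPlus and 59.6 to 94.4 in WT.

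At P5 and P30+ the differences were small. At P5 8 of 9 were positive with a median of 0.24, from -0.18 ± 0.21 in Atm to 0.64 ± 0.23 in Nkain3. None of the 9 was called, against 0% of all genes by edgeR, although the unadjusted p was under 0.05 for 3291 genes, and by DESeq2 the calls were 79 genes and 0 members. Taken by genotype, edgeR called 1 member in BD-FL-FL at P5 (181 genes higher and 110 lower of 18960). It called 0 members in BD-FLY (0 and 2 genes) and BD-FLPlus (0 and 0 genes). Kalrn at P5 ran from 96.4 to 146.5 CPM in BD-FL-FL, above every WT library (69.4 to 90.7 CPM). Dgki ran from 29.2 to 36.9 CPM in BD-FL-FL, also above every WT library (18.8 to 26.2 CPM). For the other members BD-FL-FL and WT overlapped at P5. BD-FLY and BD-FLPlus overlapped WT for both Kalrn and Dgki. At P30+ all 9 were positive with a median of 0.15 and 0 were called, against 0.393% of genes. Kalrn had the smallest p among them, at 0.34 ± 0.08 (adjusted p = 0.055). Its BD-FL-FL libraries, at 69.4 to 93.3 CPM, were above every WT library (45.9 to 58.7 CPM). BD-FLY ran from 51.5 to 65.9 CPM and BD-FLPlus from 53.3 to 66.7 CPM, both overlapping WT. By genotype 1 member was called at P30+ in BD-FL-FL (61 genes higher and 61 lower of 17827, edgeR). In BD-FLY (6 and 14 genes) and BD-FLPlus (0 and 5 genes) 0 members were called. Ptar1 at P30+ was at 15.8 ± 4.41 CPM (SD, n = 5) in WT and at 9.18 to 23.0 CPM in the 15 floxed libraries, which covered the WT range.

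In the Wnt background the medians were -0.11 at P5, -0.05 at P13 and -0.26 at P30+, with 0 of 9 called at each age, against 0.0317%, 0.0313% and 0.0439% of genes. Taken by genotype, 1 member was called lower in BDCP-FLFL at P5 (13 genes higher and 50 lower of 18913, edgeR). Dgki at P5 was -0.56 ± 0.14 (adjusted p = 0.22 by edgeR) and Nkain3 at P30+ was -0.72 ± 0.31 (adjusted p = 0.45). With the Ptch1 allele the medians were 0.23 at P5, 0.14 at P13 and -0.16 at P30+, with 0 of 9 called at each, against 0.199%, 0.0567% and 0% of genes. For the last of these the unadjusted p was under 0.05 for 678 genes, and the calls by DESeq2 were 11 genes and 0 members. Values of P30+ there mix libraries of tumour range with others. Atm stood at 47.2 and 46.8 CPM in BPtch replicates 1 and 2, whose Mki67 was at 0.951 and 1.78 CPM, and at 166, 148 and 136 CPM in replicates 3 to 5, whose Mki67 was at 1334, 1121 and 979 CPM. Kalrn moved the other way in the same libraries, from 67.9 and 58.7 CPM to 16.1, 13.9 and 16.7 CPM.

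Controls without floxed Ddx3x differed from each other at later ages as well. Over P5, P13 and P30+ together, 5 of 9 members rose in BCP against WT by edgeR, where 11.3% of genes were called: Ptar1 by 1.21 ± 0.19 (adjusted p = 1.2e-05), Dgki by 1.08 ± 0.12 (adjusted p = 2.0e-08), Nkain3 by 1.10 ± 0.22 (adjusted p = 0.00035), Kcnq1ot1 by 0.52 ± 0.10 (adjusted p = 0.00038) and Kalrn by 0.54 ± 0.17 (adjusted p = 0.030). The other 4 had values of 0.14 to 0.30. WT libraries of E16.5 did not enter this fit, so these 5 calls rest on animals that did not choose the members.

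By age, 2 members were called higher in BCP at P5, 4 at P13 and 0 at P30+ (edgeR). Beside them 380, 977 and 679 of 20045 genes were called higher and 72, 280 and 426 lower. The levels at each age are given for 3 members. Ptar1 was at 6.96 ± 2.16 CPM (SD, n = 5, as for the following levels) in WT and 10.9 to 20.6 in the 5 BCP libraries at P5, at 5.69 ± 2.39 and 17.4 ± 3.17 at P13, and at 15.8 ± 4.41 and 24.2 ± 3.72 at P30+. Dgki was at 23.4 ± 2.98 and 49.9 ± 12.7 CPM at P5, 17.8 ± 4.87 and 50.3 ± 8.38 at P13, and 27.8 ± 2.51 and 39.0 ± 8.40 at P30+. Nkain3 had lower means at P30+ than at P5 in both, at 11.3 ± 2.79 and 19.2 ± 2.47 CPM at P5 and 1.31 ± 0.561 and 2.54 ± 1.22 at P30+, and age was not tested.

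In BPtch against WT over the same ages 2 of 9 members were called, which is near the 19.3% of all genes. They were Nkain3, higher by 0.91 ± 0.21 (adjusted p = 0.0037 by edgeR), and Atm, higher by 0.57 ± 0.15 (adjusted p = 0.0092). By age, the members' median was -0.39 at P5, with 0 of 9 positive and 0 members and 0 genes called. At P13 it was 0.24, with 8 of 9 positive and 0 called, beside 12 genes called higher and 10 lower. At P30+ it was 0.03, with 5 of 9 positive and 4 called higher, beside 5522 genes higher and 3963 lower of 20045. With P5 and P13 only, which leaves out the libraries of tumour range, 0 of 9 were called. Markers of proliferation moved with this comparison, 9 of 10 called higher with a median log2 fold change of 2.14, and their part in it was not tested. Both control comparisons share the same WT libraries.

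**Figure D3:**
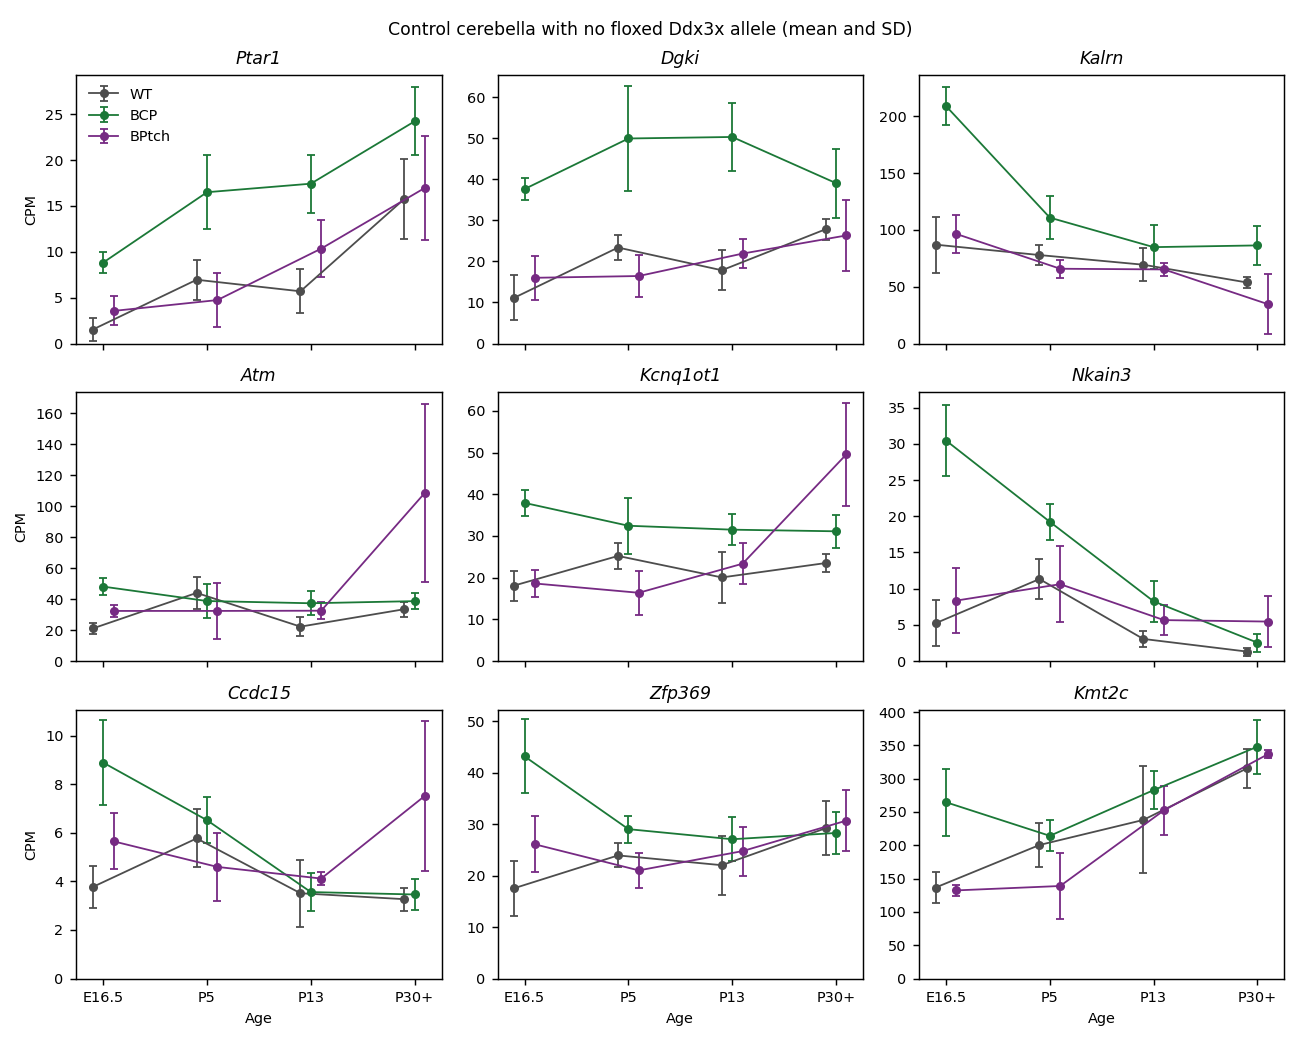
Mean ± SD of CPM of the 9 genes (1 panel a gene, linear axis) in the controls WT, BCP and BPtch at E16.5, P5, P13 and P30+, with 3 BCP libraries at E16.5 and 5 in all other points. Ptar1 and Dgki lie higher in BCP than in WT at each age, and the wide bars of Atm and Kalrn in BPtch at P30+ span cerebella with and without tumour-range Mki67.

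Implants labelled BDCP-FLY (n = 10) against BCP implants (n = 5) differed in 51.5% of all genes by edgeR, and 4 of 9 members were called, which is no more than that share. Ccdc15 rose by 1.19 ± 0.18 (adjusted p = 8.0e-05), Kcnq1ot1 by 0.86 ± 0.17 (adjusted p = 0.00072) and Atm by 0.81 ± 0.15 (adjusted p = 0.00029), while Ptar1 fell by 0.89 ± 0.19 (adjusted p = 0.00090). Ptar1, the member lowest in WT embryos, was at 18.01 ± 4.48 CPM (SD, n = 5) in BCP implants and 10.9 ± 2.09 CPM (SD, n = 10) in BDCP-FLY implants. Proliferation genes rose in the same comparison (10 of 10 called, median 1.87), and Ddx3x was not lower in the floxed implants (-0.09 ± 0.14, adjusted p = 0.61). Whether these go with the member values was not tested. In Shh tumours 0 of 9 members were called in BPtchD-FLY and 0 of 9 in BPtchD-FLPlus against BPtch, where 0.0109% and 0.0218% of genes were called. The first of these was the comparison with the largest fall of Ddx3x, by 2.57 ± 0.24 (adjusted p = 0.00029), and its members ranged from -0.24 ± 0.27 in Nkain3 to 0.41 ± 0.21 in Dgki.

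The members moved together across libraries of a group. Over the 34 libraries of E16.5 in the Wnt and Shh backgrounds, with group means removed, the 36 pairs of members had correlations of log2 CPM from 0.15 to 0.90, with a median of 0.65. The pair most alike was Kalrn and Nkain3, and Kcnq1ot1 was least like the others. These libraries share litters and preparation, so the values are a description. The non-member genes with the pattern most like the members' mean, of 15113 compared, were Zfp871 (r = 0.91), a zinc finger gene, the Wnt receptor gene Fzd3 (r = 0.91), the ciliopathy gene Alms1 (r = 0.90), the lysosomal trafficking gene Lyst (r = 0.89) and the exoribonuclease gene Xrn1 (r = 0.89). Their longest transcripts measure 10.26 to 13.18 kb. Of the 50 coding genes most alike, 40 had a transcript of at least 10 kb, and their median was 12.2 kb with a GC content of 43.8%.

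Long transcripts as a class moved with the members, so the share of a library's counts in the 409 other coding genes with a transcript of at least 10 kb was read beside them. That share was 5.90%, 5.24%, 4.67%, 5.19% and 4.08% in WT replicates 1 to 5 of E16.5, and the order of the WT libraries by Ptar1 at both ends was the same, with replicate 1 highest and replicate 5 lowest. It ran from 4.82% to 6.66% in the floxed normal libraries, from 6.49% to 6.82% in BCP and from 4.85% to 5.83% in BPtch. The controls thus took the same order in this share as in the members, with WT and BPtch low and BCP high. Over the same 34 libraries, group means removed, the correlation with this share was 0.85 for Kalrn, 0.75 for Ptar1, 0.73 for Nkain3, 0.65 for Dgki, 0.61 for Atm, 0.51 for Kmt2c, 0.50 for Ccdc15, 0.40 for Zfp369 and 0.26 for Kcnq1ot1. Without the 2 farthest libraries it was 0.81, 0.66, 0.70, 0.59, 0.53, 0.52, 0.43, 0.34 and 0.14 in the same order.

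**Figure D4:**
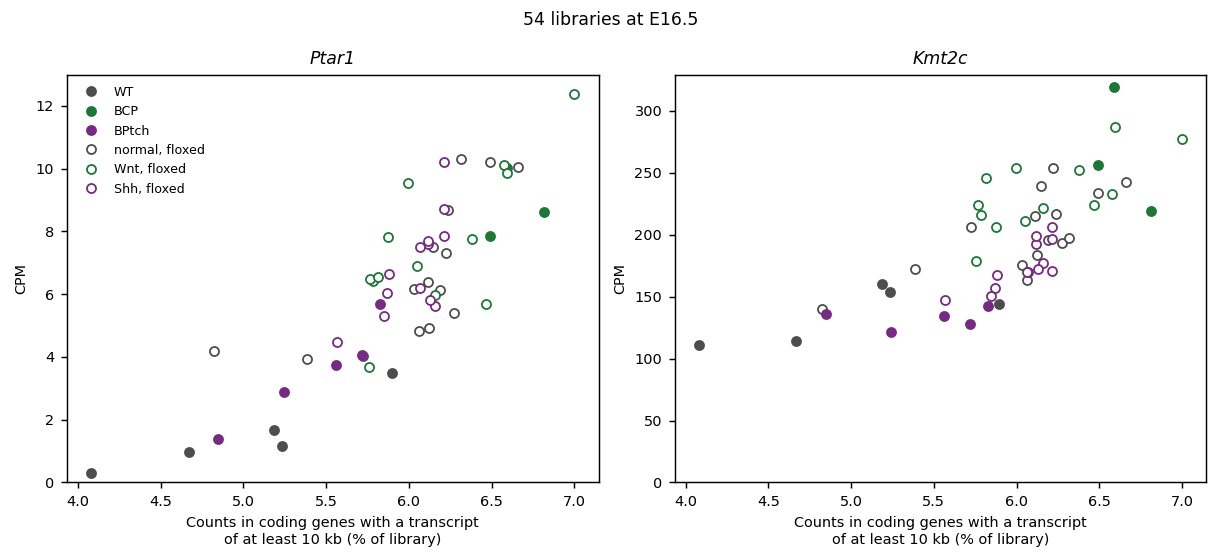
Percent of each library's counts in 409 long coding genes, the members left out (x axis), against CPM of Ptar1 and of Kmt2c (y axes, linear) in the libraries of E16.5, by group. WT libraries lie low in both panels, between 4.08% and 5.90% on the x axis, where they overlap BPtch and some floxed libraries. BCP libraries lie towards the right, between 6.49% and 6.82%, with BDCP-FLFL replicate 2 beyond them at 7.00%.

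Sorted by transcript length, the longest coding genes had the sign of the members in each background of E16.5. In the normal background the median log2 fold change rose from -0.10 under 2 kb to 0.31 at 10 kb and over. In the Wnt background it went from 0.08 to -0.14, and in the Shh background from -0.02 to 0.17. From the genes of lowest to those of highest GC content, in 5 equal classes, the medians were 0.03 and -0.05 in the normal, -0.06 and 0.03 in the Wnt and 0.02 and -0.03 in the Shh background. These classes are wider than the longest length class (2656 against 380 genes in the normal background). Their smaller spread is therefore not read as a lesser part of base composition. In the controls of P5 to P30+ the medians from the shortest to the longest class were -0.10 and 0.21 for BCP minus WT, and -0.02 and 0.01 for BPtch minus WT. By GC content, from lowest to highest, they were 0.02 and -0.03 for BCP minus WT and 0.14 and -0.17 for BPtch minus WT. The BPtch values include the P30+ libraries of tumour range, and length and base composition are not ranked from them. Of the members, Dgki, Nkain3, Ccdc15 and Zfp369 have longest transcripts under 5 kb. The part of transcript length, or of RNA or library quality that acts with it, in the member values was not tested.

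**Figure D5:**
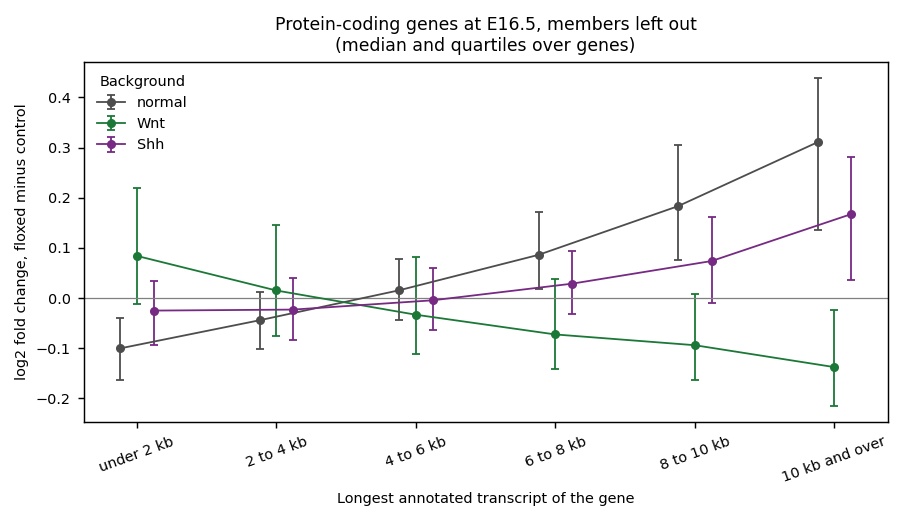
Median log2 fold change, floxed minus control, with quartiles as bars, of tested coding genes by length of the longest transcript (6 classes from under 2 kb to 10 kb and over) in the 3 backgrounds at E16.5. The medians rise with length in the normal and Shh backgrounds and fall in the Wnt background.

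None of 5 other library measures of E16.5 passed a test between WT and the floxed normal libraries. Mitochondrial genes held a mean of 1.41% of counts in WT and 1.35% in the floxed libraries (exact permutation test, two-sided, p = 0.834, adjusted over 5 measures p = 0.990). The 10 most abundant genes held 3.44% and 3.37% (exact permutation p = 0.621, adjusted p = 0.990), cytoplasmic ribosomal protein genes 3439 and 3207 CPM (exact permutation p = 0.463, adjusted p = 0.990) and nuclear long noncoding RNAs 12820 and 12830 CPM (exact permutation p = 0.990, adjusted p = 0.990). The p for library totals was 0.504 (exact permutation, adjusted p = 0.990). Choroid plexus markers summed to 43.4 to 4655 CPM in WT and 23.3 to 4122 CPM in the floxed normal libraries, and Hox genes to 80.0 to 669 CPM and 0.898 to 582 CPM, so both ranges were wide and overlapped.

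The partners of the members in their pathways showed few changes at E16.5. Of 9 other diacylglycerol kinases 1 rose in the Shh background, Dgkh by 1.92 ± 0.41 (adjusted p = 0.0496 by edgeR), and Dgkh also rose at P13 in the normal background by 1.63 ± 0.30 (adjusted p = 0.025) and in BCP against WT at later ages by 1.46 ± 0.26 (adjusted p = 6.0e-05). In the Wnt background of E16.5 Dgkh was at -0.76 ± 0.37 (adjusted p = 0.58), so it had the signs of Dgki in these comparisons. None of 10 prenyltransferase genes, 11 Kalrn relatives and Rac pathway genes, 15 DNA damage kinases and partners, 14 histone methyltransferases of the Kmt2 family and partners, 9 genes of the Nkain and sodium pump group or 8 tested genes of the Kcnq1 imprinted domain was called in the Wnt or Shh background of E16.5 by edgeR. Their median log2 fold changes in the Shh background were 0.03, 0.04, -0.01, -0.02, 0.06 and -0.0030, beside -0.011 over all genes. In the implants, where 51.5% of all genes were called, 12 of the 15 DNA damage genes rose and 1 fell (median 1.03, beside -0.001 over all genes), and Atm rose too.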

How the data were processed

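RNA of flash-frozen mouse cerebella and tumours was sequenced, and the authors deposited raw counts per gene, whole numbers with no normalization (32075 genes, 257 libraries). The submitters' processing notes name HISAT2, featureCounts and the build GRCm38. Versions, annotation and strand setting: not given in the sources used here. Groups and replicate numbers came from the labels.

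The 9 genes, the gene lists and the tests were chosen with earlier results of these data known. Named genes were the members in every comparison, up to 3 genes of each pathway list with the smallest adjusted p, and the 5 genes most like the members' mean.

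Counts were modelled with edgeR 4.0.16 (limma 3.58.1) in R 4.3.3: TMM normalization, filterByExpr (minimum count 10, minimum total 15), quasi-likelihood F-test, two-sided, Benjamini-Hochberg adjustment over all genes tested, called under 0.05. Each contrast took the mean of 3 floxed groups minus their control, within an age and background. Later controls were compared within ages. Standard errors were computed as the log2 fold change divided by the square root of F. CPM used library totals without TMM factors, and correlations used log2 CPM with a prior count of 2. Transcript lengths and GC came from GENCODE M21 (31711 genes matched).

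Other settings tried were DESeq2 1.42.0, edgeR with DESeq2 size factors, all genes kept, replicate number or (for normal E16.5) litter as a blocking term, and each library left out. The Shh minus Wnt difference and the restriction of the control comparisons to P5 and P13 were chosen after seeing the data. On counts simulated for the E16.5 Wnt design (18808 genes), 92.8% of genes changed by 1 on the log2 scale and 98.1% of those changed by 1.5 were called, with 0.043% of unchanged genes. Files were read with the R package data.table (version 1.17.8). Totals of 614465 to 92341867 counts set the precision, which for Ptar1 in WT embryos rested on 7 to 67 counts a library.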

Additional observations from a re-analysis of the deposited data

Results flagged for a closer look

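Of 117 combinations of a member and a group of 4 or 5 libraries, examined for a library far from the rest, 5 had one. Chance alone sets some libraries apart. Ptar1 stood at 12.39 CPM in BDCP-FLFL E16.5 replicate 2, where the other 4 libraries held 6.47 to 7.76 CPM. Dgki stood at 20.58 CPM in WT E16.5 replicate 1 against 6.60 to 10.2 CPM in the other WT embryos. This is the WT embryo whose littermates were of the Wnt background, and it also had the largest share of counts in long coding genes among the WT libraries (5.90%). Atm was at 53.21 CPM in BDCP-FLY E16.5 replicate 3 and at 40.4 to 42.7 CPM in the rest of that group. Ccdc15 was at 6.407 CPM in BD-FL-FL E16.5 replicate 5, below the 8.94 to 9.22 CPM of the others. Kmt2c was at 266.0 CPM in BD-FLY P13 replicate 3, below the 356.7 to 388.0 CPM of the others.

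The floxed effect at E16.5 differed between the Shh and the Wnt background for 4 members by edgeR's interaction test (adjusted p of 0.036 to 0.043): by 1.0716 for Dgki, 0.8519 for Kalrn, 0.7462 for Atm and 0.6802 for Kmt2c on the log2 scale. In each case the floxed libraries were higher than BPtch and not higher than BCP on average. BPtch embryos came from 1 litter that held no floxed embryo, so litter and genotype cannot be told apart there, and of the BCP embryos 2 had a floxed littermate.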

How the results depend on the processing

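No call of a member changed sign under any alternative run. DESeq2 called more genes at E16.5, P5, P13 and P30+ in the normal background (264, 79, 241 and 366), the Wnt background (52, 49, 24 and 42) and the Shh background (440, 127, 98 and 11), in the Shh tumours (355 for BPtchD-FLY, 11 for BPtchD-FLPlus) and in the Shh minus Wnt difference (402). It called 3 members at P13 and 1 at P30+ in the normal background, 8 at E16.5 in the Shh background and 8 in the Shh minus Wnt difference. DESeq2 size factors in edgeR gave 5 genes in BPtchD-FLY tumours in place of 2. Without the low-count filter the calls were 0 members at P13 and 45 genes at P30+ in the normal background, and 0 members and 14 genes in the Shh minus Wnt difference. With P5 and P13 only, BPtch against WT had 65 genes and 0 members called.

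Replicate numbers did not pair the libraries (at E16.5 in the normal background 8 of 30 same-numbered pairs correlated above 0.1, median r = -0.04). With the replicate number as a block the genes called were 0 at E16.5 and 21 at P13 in the normal background, 6, 5 and 4 at E16.5, P5 and P13 in the Shh background, 5194 in the implants, 0 in BPtchD-FLPlus tumours and 3 in the Shh minus Wnt difference, and the members called were 0 at P13 normal, 0 at E16.5 Shh and 0 in the difference. With litter as a block 127 genes were called at E16.5 in the normal background, where the members' median log2 fold change was 1.08 in place of 0.88.

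Leaving out each library in turn, the genes called ranged from 0 to 318 at E16.5, 0 to 42 at P5, 27 to 87 at P13 and 19 to 300 at P30+ in the normal background. The ranges were 6 to 51 at P5 and 4 to 13 at P13 in the Wnt background, and 3 to 242, 3 to 49, 1 to 13 and 0 to 5 at the 4 ages of the Shh background. They were 2 to 17 in BPtchD-FLY and 0 to 6 in BPtchD-FLPlus tumours, 3 to 212 in the Shh minus Wnt difference and 2780 to 6229 for BPtch against WT. The members' median at E16.5 in the normal background ranged from 0.73 to 1.04.

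Members called ranged from 0 to 3 at P13 normal: 0 without WT replicate 1, 2, 3 or 4, BD-FL-FL 2, 3 or 5, BD-FLPlus 2, 3 or 4, or BD-FLY 1, 3 or 4, and 3 without BD-FL-FL 1. At P30+ normal they ranged from 0 to 1 (1 without WT 5, BD-FLY 2 or 3, BD-FL-FL 2 or BD-FLPlus 4), and at P5 Wnt from 0 to 1 (1 without BCP 1). At E16.5 Shh they ranged from 0 to 6: 0 without BPtch 3, 4 or 5 or BPtchD-FLPlus 2, 1 without BPtchD-FLY 1, 2, 3, 4 or 5, BPtchD-FLFL 2, 3, 4 or 5 or BPtchD-FLPlus 1, 5 without BPtchD-FLPlus 3 and 6 without BPtch 2. In the Shh minus Wnt difference they ranged from 0 to 7: 0 without BCP 1, 2 or 3, BDCP-FLFL 3, BDCP-FLPlus 3, BPtch 3 or 5, BPtchD-FLY 4 or 5, BPtchD-FLFL 3 or BPtchD-FLPlus 1 or 2, 2 without BPtchD-FLY 1 or 3, and 7 without BDCP-FLFL 2. For BPtch against WT they ranged from 2 to 4 (4 without BPtch P30+ 1). The causes were not tested. Depth limits Ptar1, Nkain3 and Ccdc15 most, whose WT embryos held as few as 7, 56 and 49 counts.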
